A study of Danio rerio with 12 samples.

Results

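Juvenile gonads of zebrafish labelled ovary or testis were compared at 25 days post fertilization (dpf). The comparison used 6 of the 12 gonads in the series, 2 ovaries and 4 testes, chosen by their labelled tissue and age. Every gonad came from strain AB fish of the genotype Tg(piwil1-egfp-nos3UTR)ihb327Tg, a reporter line whose name gives a piwil1 promoter driving green fluorescent protein with a nos3 UTR, and no group lacked the transgene. Sex was judged from the gonad's form under a microscope, and RNA of each gonad was amplified as cDNA before sequencing. The other 6 gonads, 3 ovaries and 3 testes of the same strain and genotype at 30 dpf, helped to estimate the spread between gonads and served once as a second look at the same question. The question was which genes already differed between putative ovaries and testes at the younger age. The labels do not say whether any gonads came from the same fish, so the p-values measure the spread between these gonads.

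In zebrafish, most gonads first form immature oocytes, and in fish that become males these oocytes are lost while a testis takes shape. Growing oocytes load the proteins of the egg coat, store maternal RNAs and keep the piRNA machinery of germ cells, which silences transposons. Supporting cells (granulosa cells in the ovary, Sertoli cells in the testis), steroid-producing cells and stroma surround the germ cells in both sexes.

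The deposited table held raw counts for 32520 genes, of which 19292 had enough counts to be tested. Totals ranged from 4654015 to 5331223 counts over the 6 gonads, so that 3 counts, the floor used below, corresponded to 0.528 to 0.652 CPM (counts scaled to a common library total). Levels are given in CPM after TMM scaling, which is not per gene length, so levels are compared between gonads and not between genes. Testis 1 carried 54050 CPM of skeletal muscle genes in sum, against 523 to 1407 CPM in the other testes and 564 and 1252 CPM in the ovaries. Testis 2 carried 16080 CPM of gut, liver and pancreas genes, against 1296 to 3032 CPM in the other testes and 1242 and 1400 CPM in the ovaries. Both testes therefore stood apart from testes 3 and 4 before any test was made, and counts without them are given with the results. In the first principal component, which held 48.6% of the variance, the ovaries lay at 71.5 and 101 and testes 1 to 4 at -61.3, -76.3, -24.7 and -10.5. The sexes did not overlap along it, and testes 3 and 4 were the nearest to the ovaries.

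At 25 dpf, 1666 genes passed the test in favour of the ovaries and 886 in favour of the testes. The test was edgeR's quasi-likelihood fit, with p adjusted by Benjamini-Hochberg and a threshold of 0.05. These were 8.64% and 4.59% of the genes tested, together 13.2%. Both ovaries lay above every testis for 4108 genes, 21.3% of those tested, and below every testis for 3694, or 19.1%. The median log2 fold change, ovary over testis, of all tested genes was -0.09. In the egg coat, oocyte and germ cell lists, 14 of 18, 21 of 30 and 14 of 26 were higher in ovaries. In the list of stroma and extracellular matrix, 14 of 40 were higher in testes. The lists were chosen with earlier results of these data known, so these counts are not independent evidence. The number of calls moved most with ovary 2: without it 81 and 11 genes were called, without ovary 1 there were 1036 and 296, and without testes 1 and 2 together 427 and 261. Of the 98 called genes that the naming rule chose, 7 were still called without ovary 2, 48 without ovary 1, 24 without testes 1 and 2 together, and between 76 and 82 when any 1 testis was left out. Among the 1666 genes higher in ovaries, testis 4 was the highest testis in 61.2%, against 26.9% of all tested genes, and ovary 2 was the higher ovary in 72.1%, against 49.6%.

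**Figure D1:**
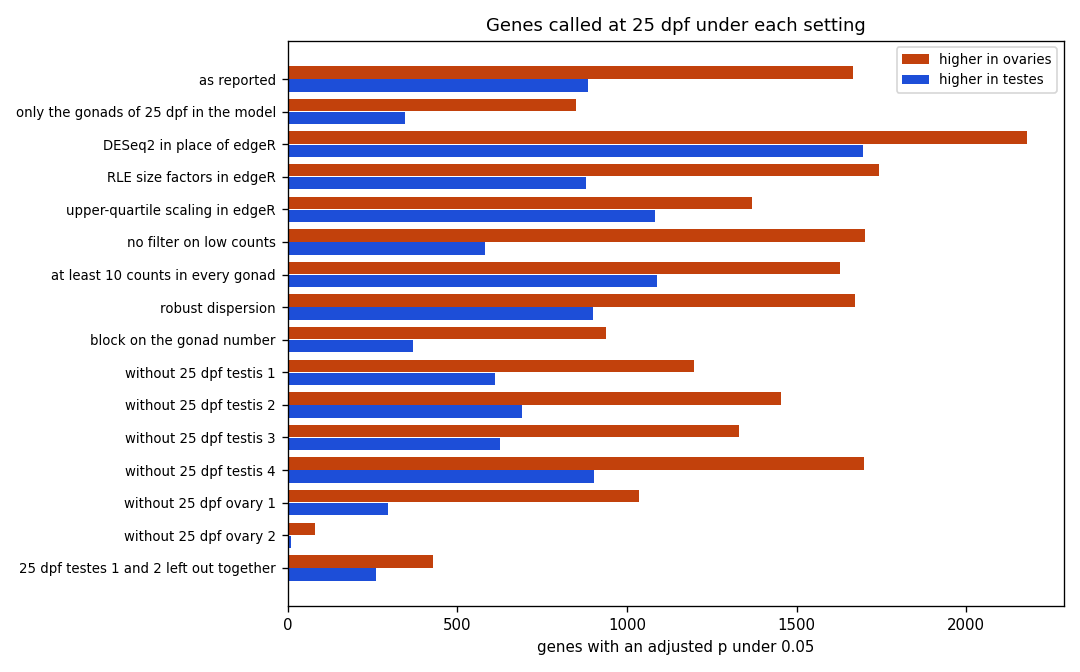
Number of genes called higher in ovaries (orange) and in testes (blue) at 25 dpf, on a linear axis from 0, as reported and under each other setting. The bars for the setting without ovary 2 end at 81 and 11, against 1666 and 886 as reported.

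The genes of the egg coat were higher in both ovaries. Their proteins, of the zona pellucida family, form the envelope around the fish egg. Of 18 tested members, 14 were higher in ovaries and none in testes, against 8.64% and 4.59% of all genes. The median log2 fold change was 4.70. Both ovaries lay above every testis for 15 of the 18. The list summed to 7605 and 11700 CPM in ovaries 1 and 2, and to 153, 94.5, 616 and 1163 CPM in testes 1 to 4. The ovaries did not overlap the testes, and testes 3 and 4 held several times the egg coat RNA of testes 1 and 2.

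zp3e reached 1698 and 2570 CPM in the ovaries and 5.43, 8.45, 37.8 and 143 CPM in testes 1 to 4. Testis 4 was the highest testis and both ovaries were far above it, with a log2 fold change of 5.45 ± 1.37 (SE) and an edgeR adjusted p of 0.026. zp2.3 showed 109 and 217 CPM in the ovaries and 0.217, 0.528, 0.568 and 6.64 CPM in the testes, where 3 of the 4 testes were at or under the floor (log2 fold change 6.30 ± 1.16, edgeR adjusted p = 0.00862). zp3b, with 1184 and 1408 CPM in the ovaries and 61.7, 30.6, 225 and 349 CPM in the testes, gave 2.96 ± 0.88 and an edgeR adjusted p of 0.0477. The testes thus held measurable zp3b RNA, most of it in testes 3 and 4. Of the 4 members not called, zp3a.2 had a log2 fold change of 4.61 with an edgeR adjusted p of 0.0525, and zpcx, ZPLD1 and zp2l1 had values between 0.48 and 0.86. The count of 14 was 9 without testis 1, 9 without testis 3, 7 without ovary 1, 2 without ovary 2 and 3 without testes 1 and 2 together.

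Oocyte factors, regulators and stored messages of the growing oocyte, were higher in ovaries for 21 of 30 tested members, against 8.64% of all genes. None was higher in testes, against 4.59% of all genes, and the median log2 fold change was 2.40. figla, a transcription factor that turns on egg coat genes in vertebrate oocytes, stood at 77.3 and 149 CPM in the ovaries and at 9.12, 2.82, 9.27 and 9.51 CPM in the testes. All 4 testes lay far below both ovaries, testis 2 lowest of all (log2 fold change 3.88 ± 0.80, edgeR adjusted p = 0.0129). GDF9 and bmp15 encode growth factors secreted by oocytes. GDF9 was at 43.7 and 63.5 CPM in the ovaries and at 6.95, 12.9, 14.9 and 14.5 CPM in the testes, with a log2 fold change of 2.12 ± 0.33 and an edgeR adjusted p of 0.00565. bmp15 was at 25.3 and 44.1 CPM against 3.69, 7.04, 9.27 and 10.6 CPM, with 2.17 ± 0.47 and an edgeR adjusted p of 0.0152. For both genes the ovaries were separated from the testes, and testis 1 was lowest.

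The maternal transcription factors pou5f3 and nanog belonged to the same list. pou5f3 was at 97.1 and 230 CPM in the ovaries and at 0.434, 0.704, 11.4 and 11.7 CPM in the testes (log2 fold change 4.74 ± 1.09, edgeR adjusted p = 0.0186). Testes 1 and 2 were near the floor and testes 3 and 4 were not. nanog gave 2.89 ± 0.54, buc, which organizes the Balbiani body of the oocyte, 2.42 ± 0.42, and CPEB1, a translational regulator of stored messages, 2.92 ± 0.52, with edgeR adjusted p values of 0.00886, 0.00697 and 0.00801. WEE2, an oocyte kinase that holds meiosis in arrest, differed between the ovaries themselves, at 7.12 and 77.9 CPM, against 0.568 to 3.59 CPM in the testes, and was not called without ovary 2. DAZL and YBX1 were among the 9 members not called, with log2 fold changes of 0.42 and -0.33. The summed level of the list was 12180 and 15340 CPM in the ovaries and 5536 to 6723 CPM in the testes. Without ovary 2 the count of 21 was 1, and without testes 1 and 2 together it was 7.

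**Figure D2:**
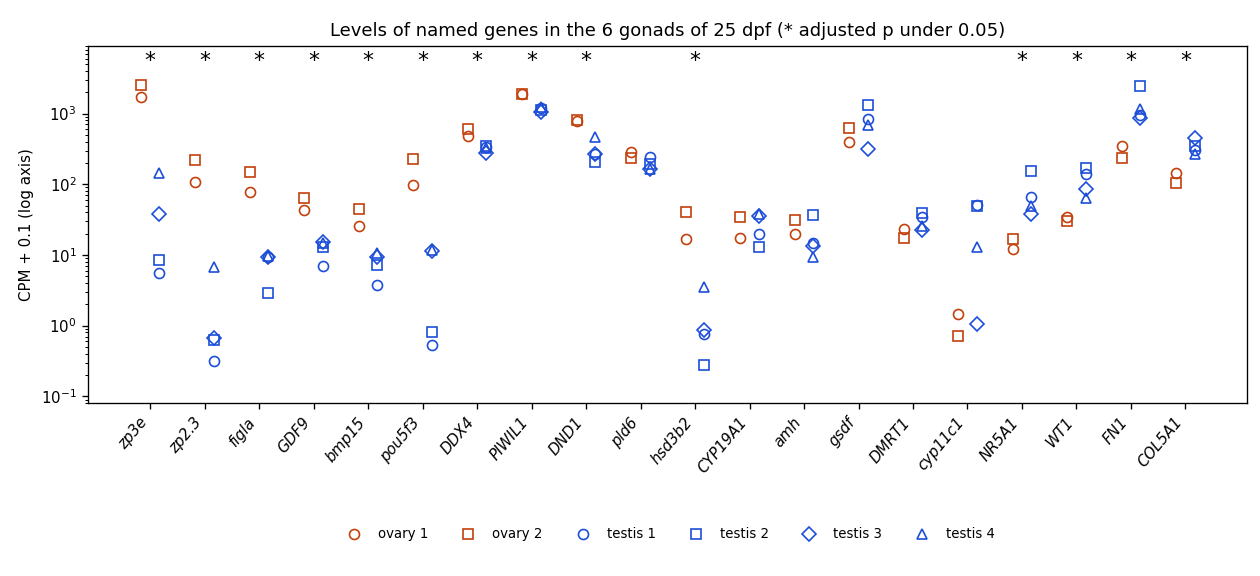
CPM plus 0.1 of 20 genes in each gonad of 25 dpf, on a log axis, with ovaries in orange and testes in blue, 1 symbol shape for each gonad number; an asterisk marks an adjusted p under 0.05. The egg coat and oocyte genes on the left do not overlap between the sexes, with zp3e at 1698 and 2570 CPM in ovaries and at most 143 CPM in testes, while amh, gsdf, DMRT1 and CYP19A1 overlap.

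Germ cell and piRNA genes were also higher in ovaries, by smaller folds. Of 26 tested members 14 were higher in ovaries and none in testes, against 8.64% and 4.59% of all genes. The median log2 fold change was 0.74. PIWIL1 encodes a piRNA-binding Argonaute protein whose promoter drives the reporter. It was at 1875 CPM in both ovaries and at 1179, 1134, 1060 and 1254 CPM in the testes (log2 fold change 0.70 ± 0.12, edgeR adjusted p = 0.00659). The ovaries agreed closely and the testes formed a narrow range beneath them. DDX4, the germ cell helicase Vasa, was at 474 and 599 CPM against 336, 345, 277 and 329 CPM, a log2 fold change of 0.74 ± 0.19 with an edgeR adjusted p of 0.0301. DND1, which protects germ cell messages, was at 777 and 805 CPM against 267, 206, 266 and 463 CPM, with 1.40 ± 0.26 and an edgeR adjusted p of 0.00861. Testis 4 was the highest testis for DND1 and lay below both ovaries, which was a condition for naming it. No testis held less than 206 CPM of any of these 3 RNAs.

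NANOS3 gave a log2 fold change of 1.80 ± 0.43 (edgeR adjusted p = 0.0223), but its reads cannot be told apart from reads of the reporter if the nos3 UTR of the transgene is that of this gene. ASZ1, which anchors piRNA factors at mitochondria, was at 13.8 and 41.0 CPM in the ovaries and at 3.97 to 7.89 CPM in the testes. pld6, the mitochondrial phospholipase that takes part in piRNA production, was at 286 and 232 CPM in the ovaries and at 241, 196, 163 and 166 CPM in the testes. Testis 1 lay above ovary 2, so the sexes overlapped, and the log2 fold change of 0.43 ± 0.23 was not called (edgeR adjusted p = 0.222). TDRD1, a scaffold of piRNA factors, was uneven between the ovaries: 505 CPM in ovary 1, 7.55 CPM in ovary 2 and 2.87 to 5.81 CPM in the testes, not called with an edgeR adjusted p of 0.0653. The meiosis genes, active in germ cells of both sexes, had no called member among 33 tested, against 13.2% of all genes. Both ovaries lay below every testis for 7 of the 33, against 19.1% of all genes. SYCP3, a protein of the synaptonemal complex, was 1 of these 7. It was at 97.7 and 48.2 CPM in the ovaries and at 163, 106, 113 and 139 CPM in the testes (log2 fold change -0.84 ± 0.55, edgeR adjusted p = 0.317). The count of 14 germ cell and piRNA genes was 9 without ovary 1, 0 without ovary 2 and 3 without testes 1 and 2 together. In bulk RNA, fewer cells of a type and less RNA per cell cannot be told apart, here or in any list below.

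**Figure D3:**
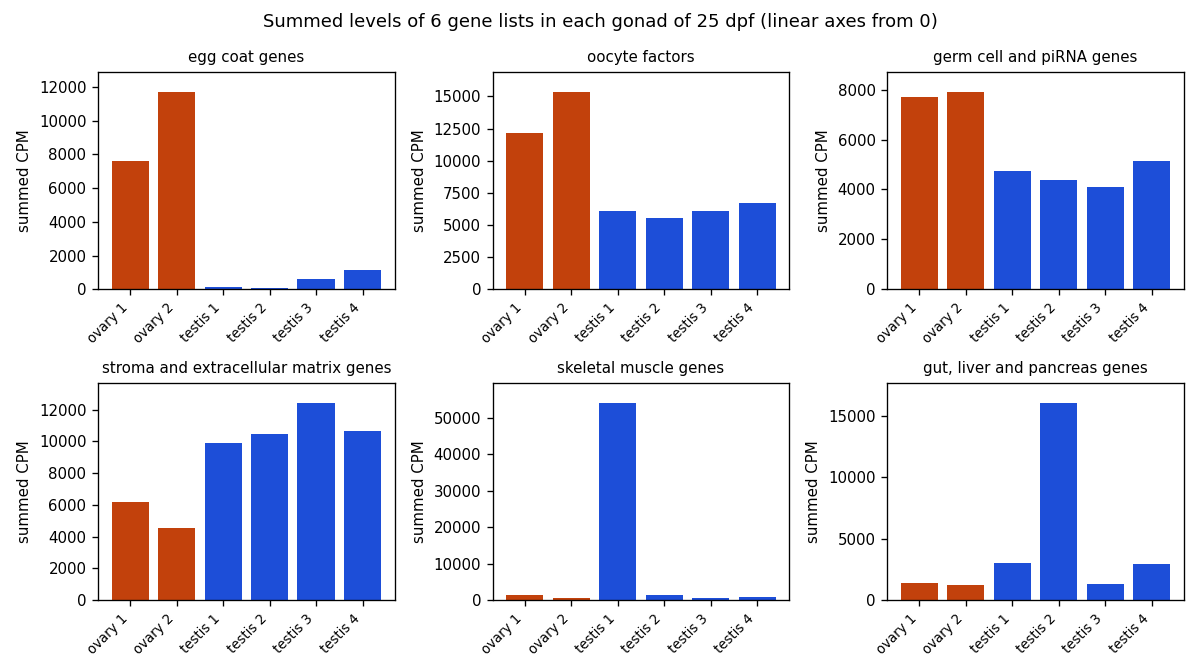
Summed CPM of 6 gene lists in each of the 6 gonads of 25 dpf, on linear axes from 0, ovaries in orange and testes in blue. Egg coat genes stand at 7605 and 11700 CPM in the ovaries and at most 1163 CPM in the testes, while the muscle and gut, liver and pancreas sums are dominated by testis 1 and testis 2.

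Genes named in the study, most from its screen for ovary-biased and germ cell dependent genes, were looked at as a group. Of 22 names, 21 were matched, giving 22 genes, so the group is not exactly the set the study screened. By RT-PCR, the study found most of the genes it tested, though not all, at lower levels in gonads depleted of germ cells. By RT-qPCR on pooled wildtype gonads, it reported pld6, org, zgc:103482 and rnf17 as higher in juvenile ovaries. Of these, pld6 overlapped between the sexes here and was not called. The screen used these same libraries, so the count is not independent evidence of its direction. Of 22 tested, 13 were higher in ovaries and none in testes, against 8.64% and 4.59% of all genes. The median was 1.04. org, an oocyte-related gene of fish, was at 489 and 623 CPM in the ovaries and at 147, 117, 129 and 209 CPM in the testes, and its log2 fold change of 1.89 ± 0.25 (edgeR adjusted p = 0.00482) kept its call in every setting run. zgc:103482 was at 349 and 437 CPM against 133, 127, 135 and 201 CPM (1.40 ± 0.20, edgeR adjusted p = 0.00482). rnf17, a Tudor domain protein of germ cells, was at 88.6 and 101 CPM against 62.1, 67.4, 55.8 and 58.3 CPM (0.64 ± 0.17, edgeR adjusted p = 0.0349). The ovaries and testes did not overlap for these 3 genes, and the step between them was smallest for rnf17. Without ovary 2, zgc:103482 and rnf17 were no longer called.

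Called genes with both ovaries above every testis and a mean of at least 10 CPM in ovaries were ranked by fold change. With clone names left out, the 12 furthest toward the ovary were mbd3b, alox5b.3, HMG20B, micos13, zp2.3, h2af1al, eef2a.1, dtx3la, zp2.5, stab2, zp3.2 and zp2.1. Their log2 fold changes ran from 5.63 to 6.93. mbd3b, of the methyl-CpG binding domain family, was at 71.0 and 62.4 CPM in the ovaries and at or under 3 counts in all 4 testes, at least 102-fold higher in ovaries (edgeR adjusted p = 0.00482). alox5b.3, a lipoxygenase gene, was at 95.3 and 44.9 CPM in the ovaries and at 0, 0.176, 0.946 and 1.08 CPM in the testes. micos13, a subunit of the MICOS complex that shapes mitochondrial cristae, was at 77.7 and 73.5 CPM in the ovaries and at 1.52, 0.528, 0.757 and 0.897 CPM in the testes (log2 fold change 6.34 ± 1.18, edgeR adjusted p = 0.00887). Each of these genes was on in both ovaries and close to the floor in the testes. At 30 dpf mbd3b was at 53.5, 55.5 and 1.16 CPM in the 3 ovaries and at 0.618 to 1.21 CPM in the testes. Ovary 3 of that age thus lay within the range of the testes. For micos13 it was at 0 CPM, against 61.0 and 62.6 CPM in the other ovaries. alox5b.3 was at 9.95, 10.2 and 0.463 CPM in the ovaries, and was not called (edgeR adjusted p = 0.0886). HMG20B, eef2a.1 and stab2 were at 0.6945, 0.2315 and 1.16 CPM in ovary 3 of 30 dpf. In it the other genes of the 12 stayed above every testis of that age. Without ovary 2, mbd3b and alox5b.3 alone of the 12 remained called, and without testes 1 and 2 together 3 of the 12 were called.

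Several lists of mitochondrial and ribosomal genes had members higher in ovaries, by modest folds, while most of their members were not called. Mitochondrial ribosomal proteins, which translate the mitochondrial genome's messages, were higher in ovaries for 23 of 74 tested members, mitochondrial import genes for 9 of 41 and nuclear encoded oxidative phosphorylation genes for 13 of 105. None was higher in testes in these 3 lists, and their medians were 0.49, 0.41 and 0.22. Cytosolic ribosomal proteins (13 of 80, median 0.36) and genes of ribosome biogenesis and tRNA charging (16 of 53, median 0.57) also had calls in ovaries alone. Against the background of 8.64% called higher in ovaries, the share was above it in each of these lists, and the lists' medians lay above the -0.09 of all genes. Of the 13 mitochondrially encoded genes, 1 was called, MT-ND3 of complex I (log2 fold change 0.99 ± 0.30, edgeR adjusted p = 0.048), and their median was 0.02.

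TIMM8B, a small chaperone of mitochondrial import, was at 156 and 136 CPM in the ovaries and at 52.99, 52.3, 56.4 and 63.3 CPM in the testes, a log2 fold change of 1.37 ± 0.18 (edgeR adjusted p = 0.00482). The testes were nearly equal, the ovaries well above them, and the call held in every setting run. tomm7, of the outer membrane import pore, was at 85.6 and 79.2 CPM against 21.5, 27.3, 25.5 and 35.3 CPM, with 1.59 ± 0.29 and an edgeR adjusted p of 0.0085. COX5A, a subunit of cytochrome c oxidase, was at 330.0 and 304 CPM against 183, 155, 145 and 188.7 CPM, with 0.92 ± 0.18 and an edgeR adjusted p of 0.011. The step was larger for the import genes than for COX5A, although the levels of each gene were even within a sex. IMP3, of the machinery that processes ribosomal RNA, gave 1.46 ± 0.23 (edgeR adjusted p = 0.00615).

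Genes of mitochondrial dynamics, biogenesis and mitophagy had a median of 0.25, near the 0.22 of the oxidative phosphorylation genes, but no excess of calls in ovaries. Of 34, 2 were higher in ovaries (YME1L1 and mief2) and 1 in testes (MAP1LC3B, of autophagosomes). Of all genes, 8.64% and 4.59% were called in these directions. Without ovary 1 the oxidative phosphorylation count was 0 and the cytosolic ribosomal count 2, and without ovary 2 the 5 larger lists held 1, 2, 1, 0 and 0 calls in the order given. Without testis 3 the oxidative phosphorylation and cytosolic ribosomal counts were 6 and 6, without testis 2 the former was 8, and the 23 mitochondrial ribosomal calls were 12 without ovary 1 and 14 without testis 1 or testis 3. In the setting without testes 1 and 2 the 5 lists held 3, 4, 1, 2 and 2 calls.

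**Figure D4:**
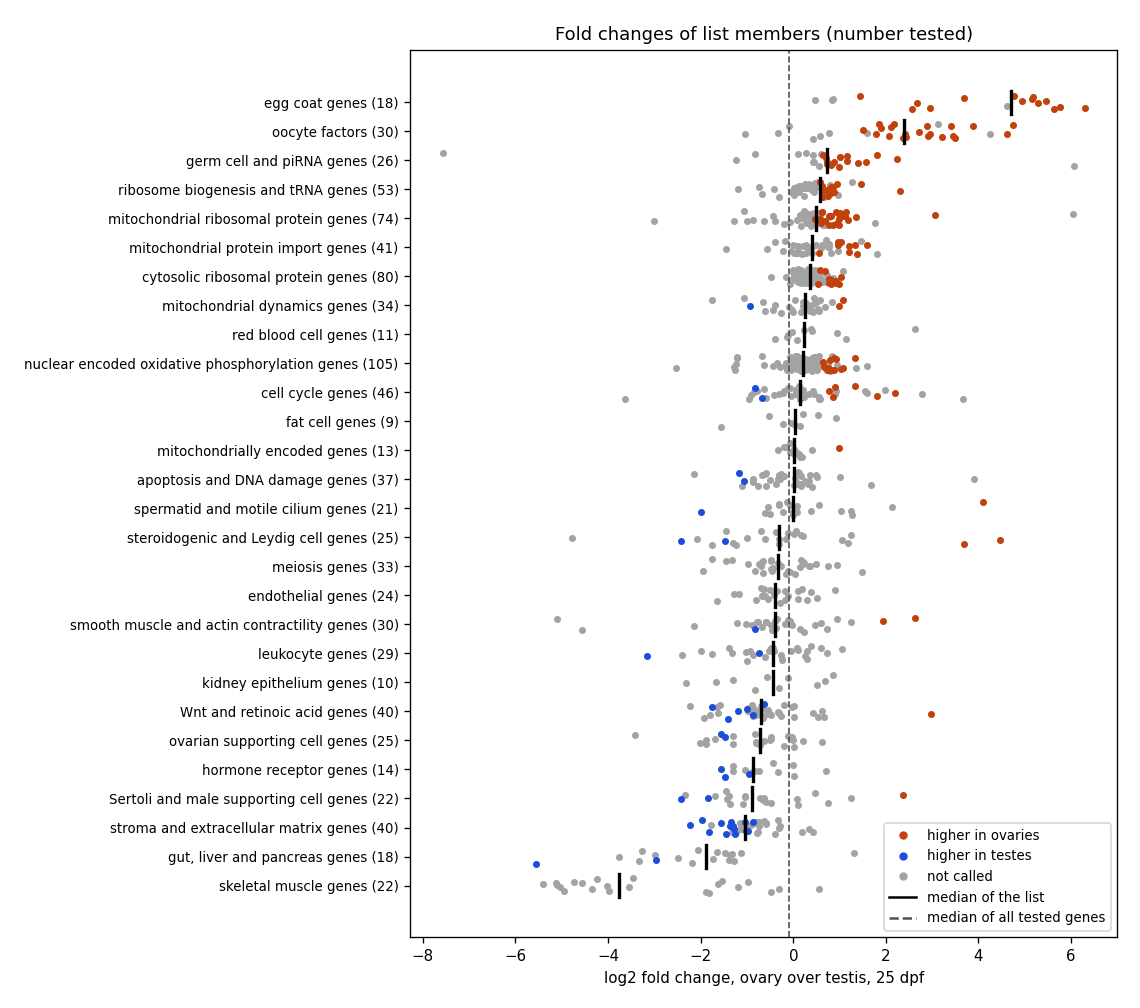
Log2 fold change, ovary over testis at 25 dpf, of each tested member of 28 gene lists, with the number tested in brackets; orange and blue points were called, grey points were not, black bars are list medians and the dashed line is the median of all tested genes at -0.09. The list medians run from 4.70 for egg coat genes to -3.76 for skeletal muscle genes, in which no gene was called.

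Cell cycle genes had calls in both directions. Of 46 tested, 6 were higher in ovaries and 2 in testes, against 8.64% and 4.59% of all genes, with a median of 0.15, so the share in testes was about that of all genes and the share in ovaries somewhat above it. CCNB2, a mitotic cyclin also stored in oocytes, was at 141 and 343 CPM in the ovaries and at 41.3, 41.9, 62.2 and 64.2 CPM in the testes (log2 fold change 2.21 ± 0.40, edgeR adjusted p = 0.00831). aurka, a spindle kinase, gave 1.81 ± 0.29 (edgeR adjusted p = 0.00602). TOP2A, which untangles replicated DNA, was lower in ovaries, at -0.83 ± 0.17 (edgeR adjusted p = 0.0128), and PCNA and mki67, markers of dividing cells, had log2 fold changes of 0.09 and -0.31 and were not called. Without ovary 2 no member was called higher in ovaries, and without testes 1 and 2 together 2 were. The 2 calls in testes were 0 without either ovary or without testes 1 and 2, and 1 without testis 1 or testis 3.

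On the side of the testes, genes of stroma and extracellular matrix had the most calls of any list. Of 40 tested members, 14 were higher in testes and none in ovaries, with a median log2 fold change of -1.04, against 4.59% of all genes. The list summed to 6159 and 4554 CPM in the ovaries and to 9903, 10490, 12420 and 10650 CPM in the testes, with no overlap between the sexes. FN1 (ENSDARG00000006526), a fibronectin gene, was at 343 and 231 CPM in the ovaries and at 964, 2456, 855 and 1148 CPM in the testes, a log2 fold change of -2.24 ± 0.53 (edgeR adjusted p = 0.0203). Testis 2 was highest. Every testis exceeded both ovaries, which was a condition for naming the gene. COL5A1, a fibrillar collagen, was at 145 and 105 CPM against 302, 351, 452 and 267 CPM, with -1.46 ± 0.32 and an edgeR adjusted p of 0.017. COL12A1 (ENSDARG00000078322), a collagen that associates with fibrils, was at 69.4 and 49.6 CPM against 141, 145, 266 and 150.0 CPM, with -1.56 ± 0.33 and an edgeR adjusted p of 0.014. Testis 3 was highest for both collagens. TGFBI, COL4A1, LAMB1 and PDGFRB, which encode matrix and basement membrane proteins and a receptor of mural cells, were also called. The count of 14 was 8 without testis 3, 5 without ovary 1, 0 without ovary 2 and 8 without testes 1 and 2 together.

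Genes of signalling lists were also tested. Among 40 Wnt and retinoic acid genes, 6 were higher in testes, against 4.59% of all genes, including WNT5B, FZD7 and SFRP1 of the Wnt pathway and RXRA, a retinoid receptor, and 1 was higher in ovaries. WNT5B was at 11.9 and 7.96 CPM in the ovaries and at 33.7, 24.8, 50.5 and 26.0 CPM in the testes (log2 fold change -1.76 ± 0.42, edgeR adjusted p = 0.021). The gene higher in ovaries was RDH10 (ENSDARG00000012369), which makes retinaldehyde from retinol, at 563 and 1098 CPM against 68.4, 63.7, 104 and 185 CPM, with 2.98 ± 0.44 and an edgeR adjusted p of 0.00494. A second RDH10 gene (ENSDARG00000058730) went the other way, at 49.8 and 42.2 CPM against 134, 143, 99.7 and 109 CPM (-1.40 ± 0.41, edgeR adjusted p = 0.0444). The sexes did not overlap for either copy, which was a condition for naming them. Among 14 receptors of hormones and growth factors, 3 were higher in testes, against 4.59% of all genes. These were ESR2 (ENSDARG00000016454), an estrogen receptor, BMPR2 (ENSDARG00000020057), a receptor of bone morphogenetic proteins, and NR3C1, the glucocorticoid receptor. BMPR2 was at 25.3 and 18.2 CPM against 56.5, 90.3, 55.4 and 54.4 CPM, with -1.56 ± 0.29 and an edgeR adjusted p of 0.00862. The 6 Wnt and retinoic acid calls in testes were 3 without testis 3, 3 without ovary 1, 0 without ovary 2 and 2 without testes 1 and 2 together, and the 3 receptor calls were 1, 0 and 1 without ovary 1, without ovary 2 and without testes 1 and 2.

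Of the markers of supporting cells, 3 of 22 male and 2 of 25 ovarian genes passed the test at this age, against 13.2% of all genes. Over all genes, 8.64% were called higher in ovaries and 4.59% in testes. The Sertoli and male supporting cell genes had a median of -0.88, and both ovaries lay below every testis for 8 of 22, against 19.1% of all genes. Of the 22 Sertoli and male supporting cell genes, WT1 (ENSDARG00000031420) and NR5A1 (ENSDARG00000103176), transcription factors of gonadal somatic cells, were higher in testes and SOX8 (ENSDARG00000037782) was higher in ovaries. SOX8 was at 29.9 and 6.53 CPM in the ovaries and at 2.64 to 4.56 CPM in the testes, and was not called without ovary 1, while WT1 and NR5A1 were not called without either ovary. amh, the anti-Müllerian hormone of Sertoli cells, was at 19.6 and 31.2 CPM in the ovaries and at 14.6, 36.4, 13.4 and 9.15 CPM in the testes. The ranges overlapped, and its log2 fold change was 0.46 ± 1.01 (edgeR adjusted p = 0.785). gsdf, a growth factor of supporting cells in fish, was at 399 and 625 CPM against 847, 1327, 313 and 678 CPM (-0.63 ± 0.57, edgeR adjusted p = 0.473). DMRT1, a transcription factor of the male pathway, was at 22.9 and 17.3 CPM against 34.1, 38.9, 22.3 and 25.7 CPM (-0.59 ± 0.63, edgeR adjusted p = 0.556). Testis 3 lay below both ovaries for gsdf and between them for DMRT1. SOX9 (ENSDARG00000003293), a transcription factor of Sertoli cells, was at 8.70 and 4.29 CPM in the ovaries and at 23.9, 23.8, 9.84 and 9.69 CPM in the testes. All 4 testes exceeded both ovaries, and the log2 fold change of -1.36 ± 0.63 was not called (edgeR adjusted p = 0.16). The other SOX9 gene (ENSDARG00000043923) was at 2.97 and 4.29 CPM against 1.79 to 4.78 CPM. Oocyte genes were thus high in both gonads labelled ovary, while amh, gsdf and DMRT1 overlapped. WT1, NR5A1 and the first SOX9 were higher in CPM in every gonad labelled testis. WT1 and NR5A1 were named because they passed the test, so they give no independent check of the labels.

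The markers of ovarian supporting cells did not favour the ovaries, and their median was -0.73. Of 25 tested, 2 were called, ESR2 and BMPR2, both higher in testes, against 4.59% of all genes. Both ovaries lay below every testis for 10 of the 25, against 19.1% of all genes. CYP19A1, the aromatase that makes estrogen, was at 17.4 and 33.9 CPM in the ovaries and at 20.0, 12.9, 35.4 and 37.5 CPM in the testes, with a log2 fold change of -0.04 ± 1.05 (edgeR adjusted p = 0.982). FOXL2 (ENSDARG00000068417), a transcription factor of granulosa cells, was at 13.5 and 83.0 CPM against 95.98, 122, 25.4 and 92.6 CPM, and the FOXL2 with identifier ENSDARG00000042180 was at 35.4 and 0.204 CPM against 60.4, 115, 47.9 and 66.2 CPM. Neither was called, and for each of them 1 ovary lay at a small fraction of the other. In the testis group all 4 gonads carried both FOXL2 RNAs and CYP19A1 RNA.

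Steroidogenic genes went both ways. hsd3b2, a 3β-hydroxysteroid dehydrogenase gene, was at 16.6 and 40.4 CPM in the ovaries and at 0.652, 0.176, 0.757 and 3.41 CPM in the testes (log2 fold change 4.47 ± 0.90, edgeR adjusted p = 0.0118), and CYP11A1 (ENSDARG00000002347), the side chain cleavage enzyme, at 61.5 and 150.0 CPM against 13.5, 5.63, 3.59 and 10.1 CPM (3.69 ± 0.72, edgeR adjusted p = 0.0102). cyp11c1 takes part in making the fish androgen 11-ketotestosterone. It was at 1.38 and 0.612 CPM in the ovaries and at 50.0, 48.4, 0.946 and 12.9 CPM in the testes. Testis 3 was within the range of the ovaries, and the log2 fold change of -4.77 ± 1.45 just missed the threshold (edgeR adjusted p = 0.0511), with a call by DESeq2 and a range from 0.0188 without testis 3 to 0.296 without ovary 2 when single gonads were left out. HSD11B2, which oxidizes steroids at carbon 11, was higher in testes (-1.48 ± 0.42, edgeR adjusted p = 0.0417). insl3, a hormone of Leydig cells, was at 3.36 and 2.45 CPM against 0.704 to 1.95 CPM, CYP17A1 at 124 and 187 CPM against 139 to 376 CPM and STAR, which carries cholesterol into mitochondria, at 3.36 and 2.24 CPM against 5.86, 36.6, 1.70 and 3.23 CPM, none of them called. Of the 25 tested, 2 were higher in ovaries and 2 in testes, against 8.64% and 4.59% of all genes, with a median of -0.31. Neither of the calls in ovaries was made without ovary 2 or without testes 1 and 2 together, and the 2 calls in testes were 0 without either ovary or without testes 1 and 2, and 1 without testis 1 or testis 2.

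Called genes with both ovaries below every testis and a mean of at least 10 CPM in testes were also ranked by fold change. With clone names left out, the 12 furthest toward the testis included VPS37A, apoa4b.3, STK3, a2ml, c3a.3, apobb.1, ces3, TYRP1, cyp2y3, CRISPLD2 and f2. Most are known as secreted products or enzymes of the liver: apoa4b.3 and apobb.1 are apolipoproteins, c3a.3 a complement component and f2 prothrombin. Of the 12, 9 were highest in testis 2, which also held the most gut, liver and pancreas RNA, against 39.8% of all 886 genes higher in testes and 28.6% of all tested genes. apobb.1, for example, was at 34.1, 407, 15.5 and 58.8 CPM in the testes and at 3.76 and 1.63 CPM in the ovaries (log2 fold change -5.56 ± 1.67, edgeR adjusted p = 0.0482). Testis 2 was far above the rest. Every testis exceeded both ovaries, which was a condition for naming the gene. Without testis 2, 8 of the 12 were called, and without testes 1 and 2 together 2 of 11 tested. The part of RNA from neighbouring tissue in these values was not tested.

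The genes toward the testis that were not of this kind were fewer. CRISPLD2, a secreted protein of mesenchyme, was at 0.593 and 2.86 CPM in the ovaries and at 23.0, 10.7, 29.5 and 24.0 CPM in the testes. Testis 2 was lowest here, and the log2 fold change of -3.65 ± 0.61 (edgeR adjusted p = 0.0067) was called in every setting that tested it. VPS37A, of the ESCRT-I complex of endosomes, had 0 counts in both ovaries and 13.5, 18.1, 16.5 and 31.9 CPM in the testes, at least 32.7-fold higher in testes. STK3, a kinase of the Hippo pathway, was at or under 3 counts in both ovaries and at 42.8, 47.2, 28.8 and 16.9 CPM in the testes, at least 55.4-fold higher. At 30 dpf neither of these 2 genes was called, with log2 fold changes of -0.65 and 0.36. VPS37A was then at 18.55 to 19.98 CPM in the testes and at 0.538, 0.785 and 35.2 CPM in the ovaries. STK3 was split within both sexes, at 0.602, 35.2 and 15.95 CPM in testes and 0.8065, 29.1 and 36.6 CPM in ovaries. TYRP1, an enzyme of melanin synthesis, was at 3.56 and 3.27 CPM against 90.6, 11.8, 118 and 32.7 CPM (-4.20 ± 1.08, edgeR adjusted p = 0.0285). Without ovary 2, CRISPLD2 alone of the 12 stayed called.

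Markers of other cell types gave at most 3 calls in a list, where 8.64% of all genes were called higher in ovaries and 4.59% in testes. No gene was called among 24 endothelial, 11 red blood cell, 22 skeletal muscle, 9 fat cell and 10 kidney epithelium genes. The median of the muscle genes was -3.76, with the RNA in testis 1, and that of the gut, liver and pancreas genes was -1.89, with 2 of 18 higher in testes, apobb.1 and FABP2. Of 29 leukocyte genes, LCP1 (at 206 and 200.2 CPM in ovaries and 270.0 to 422 CPM in testes) and apoeb, which macrophages share with other cells, were higher in testes. apoeb was at 48.1 and 58.8 CPM in the ovaries and at 259, 1100, 101 and 449 CPM in the testes, highest in testis 2. In the gut, liver and pancreas list and in the leukocyte list, the share higher in testes was above 4.59%, with 2 calls in each. Without testis 2 none of the leukocyte and none of the gut, liver and pancreas genes was called. Of 30 smooth muscle and actin genes, acta2 and TPM4 (ENSDARG00000019128) were higher in ovaries and ZYX in testes. These shares were below those of all genes. acta2, the smooth muscle actin, was at 333 and 377 CPM against 17.16, 35.6, 91.9 and 83.4 CPM (2.64 ± 0.77, edgeR adjusted p = 0.0434), and was no longer called without either ovary or without testis 1, 2 or 4. Of 21 spermatid and motile cilium genes, SPATA18, which acts in mitochondrial quality control, was higher in ovaries. DNAI1 (ENSDARG00000100081), a dynein of motile cilia, was higher in testes. These shares were near or below those of all genes. Apoptosis and DNA damage genes held 2 calls of 37, both higher in testes, a share near the 4.59% of all genes, and neither was called without ovary 2. SESN1, which is induced by stress, was 1 of them. SESN1 was at 176 ± 18.0 CPM (SD, n = 2) in the ovaries and at 366, 414, 423 and 389.8 CPM in the testes, even within each sex (-1.18 ± 0.19, edgeR adjusted p = 0.00654).

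The same question could be asked at 30 dpf in gonads that the comparison above does not use, although both ages share the estimate of the spread. There the ovaries were higher for 3601 genes and the testes for 3188, 18.7% and 16.5% of those tested. Of the 1666 genes higher in ovaries at 25 dpf, 1458 (87.5%) were also called at 30 dpf, which was 40.5% of the longer list. Of the 886 genes higher in testes, 701 (79.1%) were called again, 22.0% of the longer list. TPM4 and si:dkey-6f10.4, singled out after their values were seen, were called in opposite directions at the ages: TPM4, a tropomyosin, was at 98.1 and 41.0 CPM in ovaries and 10.9 to 24.3 CPM in testes at 25 dpf, and at 49.5, 26.4 and 7.64 CPM in ovaries and 88.3, 119 and 91.2 CPM in testes at 30 dpf. When single gonads were left out, the adjusted p of TPM4 at 25 dpf ran from 0.0445 without testis 2 to 0.279 without ovary 1 (edgeR), and it was called only without testis 2.

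The male markers amh, DMRT1 and gsdf, not called at 25 dpf, passed the test at 30 dpf, with testis 1 of that age apart from the other testes. amh was at 15.5, 530 and 1041 CPM in the 3 testes and at 27.4, 26.7 and 12.04 CPM in the ovaries of 30 dpf, and DMRT1 at 17.3, 121 and 164 CPM against 17.7, 11.5 and 20.4 CPM. For both genes testis 1 lay within the range of the ovaries and the other testes far above it, while gsdf, at 1244, 3962 and 5187 CPM against 735.5, 633 and 1001 CPM, did not overlap. amh went from a log2 fold change of 0.46 ± 1.01 to -4.59 ± 1.09 (edgeR adjusted p = 0.00812 at 30 dpf), DMRT1 from -0.59 ± 0.63 to -2.60 ± 0.61 (0.00767) and gsdf from -0.63 ± 0.57 to -2.13 ± 0.54 (0.0113). CYP19A1 and the FOXL2 genes were called at neither age. The difference between the ages was itself tested for every gene, and edgeR called none of them (0% of 19292), with 1952 genes (10.1%) at an unadjusted p under 0.05 and 102 genes called by DESeq2. For amh, DMRT1 and gsdf the edgeR adjusted p of that difference was 0.387, 0.458 and 0.521, so a change of the sex difference with age was not shown for these genes.

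**Figure D5:**
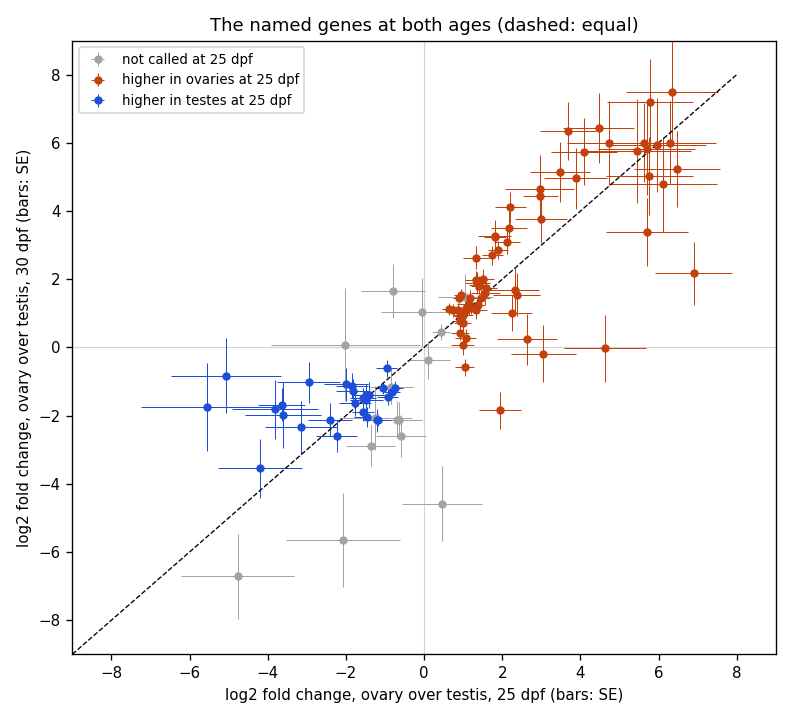
Log2 fold change, ovary over testis, at 25 dpf (horizontal) and 30 dpf (vertical) of 106 named genes, with standard errors as bars and the dashed line marking equal values; 7 genes in which 1 sex lay at or under 3 counts at 25 dpf are left out. Most called genes lie on the same side of 0 at both ages, while amh, a grey point, is at 0.46 and -4.59.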

How the data were processed

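RNA was sequenced from 12 single gonads, 6 of them of 25 dpf. Per the labels and the study's methods, the authors amplified cDNA of each gonad, tagmented it, checked reads (MultiQC 0.9 and FastQC 0.11.8), aligned them to GRCz11 with HISAT2 2.0.5, removed duplicates with Picard and SAMtools 1.5 and counted exon reads with HTSeq 0.9.1 using Ensembl genes. The deposited values are raw counts per gene. Alignment and counting used reverse strand settings, while the kit is not stated to mark strand, so reads of overlapping or antisense genes cannot be told apart. Columns were matched to groups by their names. Symbols came from a table of gene identifiers (29201 of 32520 genes), and symbols in capitals may stand for more than 1 paralogue, so identifiers are given where copies share one.

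Genes were kept by filterByExpr, scaled by TMM and tested with edgeR 4.0.16 in R 4.3.3, with limma 3.58.1 loaded: a quasi-likelihood fit over 4 group means (sex by age, 12 gonads), Benjamini-Hochberg adjustment over all tested genes and a threshold of 0.05. The contrasts were ovary against testis at 25 dpf, at 30 dpf, and their difference. The step was tested on simulated counts, with changes set only in genes above a minimum count and no gonad carrying RNA of other tissue. Changes in low-count genes and gonads like testes 1 and 2 were thus not covered. Of 50 genes each set at log2 fold changes of 2 and -2, the test called 30 and 20. At 4 and -4 it called 46 and 44 of 50, and 10 of its 150 calls were unchanged genes. Each log2 fold change is followed by its standard error. The standard error was taken as the absolute log2 fold change over the square root of the F statistic of the same fit. It thus includes the spread between gonads, and is approximate where 1 sex was near the floor. The floor of 3 counts covers counting error only. Alternatives were DESeq2 1.42.0, other size factors, filters and dispersions, only the gonads of 25 dpf, a replicate block, each gonad left out, and testes 1 and 2 left out together. Gene lists and their members were chosen with earlier results of these data known. Named genes were the called members of largest fold in each list (up to 4, sexes not overlapping). A short set of markers listed in the rule was named whether called or not. Also named were the 12 called genes of largest fold in each direction with a mean of at least 10 CPM. For these the sexes did not overlap and the symbol was not a clone name. In genes named by their fold, the lack of overlap was thus set by the rule. Further members, such as nanog, buc, CPEB1, TDRD1, PCNA, TOP2A and those quoted in single clauses, were added for their roles after their values were seen. A few genes that the rule chose are not reported here.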

Additional observations from a re-analysis of the deposited data

Results flagged for a closer look

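In 14 of 140 values examined over the 4 testes of 25 dpf, 1 testis lay far from the other 3. The cutoff singles out about 1 in 20 only among independent, normally distributed values. These values are linked through the same 4 testes and include genes chosen by their results, so the count tests no excess. Testis 1 had 21.6% of its counts in the 100 highest genes, 54050 CPM of skeletal muscle genes and the lowest sum of mitochondrial import genes, 3357 CPM. Testis 2 had 16080 CPM of gut, liver and pancreas genes and stood highest for apobb.1 (407 CPM), apoa4b.3 (92.9 CPM), BMPR2 (ENSDARG00000020057; 90.3 CPM) and STAR (36.6 CPM), and lowest for figla (2.82 CPM). Testis 4 stood highest for zp2.3 (6.64 CPM), FRMD3 (8.61 CPM), IMP3 (149 CPM) and zgc:103482 (201 CPM). Testis 3 stood highest for COL12A1 (ENSDARG00000078322; 266 CPM). The part of these gonads in each difference beyond the counts without them was not tested.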

How the results depend on the processing

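The number of calls moved most without ovary 2: with each gonad left out in turn, 81 to 1700 genes were higher in ovaries and 11 to 904 in testes at 25 dpf, and 1985 to 3125 were higher in testes at 30 dpf. Fitting only the gonads of 25 dpf gave 850 and 346 genes, and leaving out testes 1 and 2 together, chosen after seeing the data, gave 427 and 261, with fewer samples in each. DESeq2 gave 1696 genes higher in testes and no filter gave 581. Upper-quartile scaling split the calls 1369 to 1084 in place of 1666 to 886 and moved the median of all genes to -0.19. Deviations of same-numbered gonads correlated at 0.05 and -0.0048. With 2 ovaries their deviations mirror each other, so these values cannot decide whether the numbers pair the gonads. A replicate block gave 937 and 368 genes, with 49 of the 98 called named genes still called. Number 4 occurred only in testis 4, so the block also took testis 4 out of the contrast. Dependence on age was called for 102 genes by DESeq2, for 1 gene each with no filter, with at least 10 counts and with robust dispersions, for 5 without testes 1 and 2, and for 0 to 5 with a gonad left out; the causes were not tested. CRISPLD2, TIMM8B, alox5b.3, mbd3b and org were called in every setting that tested them. Directions turned only for genes that were not called: SOX9 (ENSDARG00000043923) with upper-quartile scaling (-0.0079), the replicate block (-0.0362) and a gonad left out (-0.15 to 0.37); CYP19A1 with no filter (0.0186), the replicate block (0.75) and a gonad left out (-0.56 to 0.40); FOXL2 (ENSDARG00000068417) with a gonad left out (-2.60 to 0.0173); and gsdf (0.0442), CYP17A1 (0.0034) and STAR (0.18) without testes 1 and 2. With 2 ovaries against 4 testes, an exact permutation test of a single gene cannot reach 0.05.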

Other observations

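Some genes were present in 1 gonad and near absent from another of the same sex and age. Among the genes with at least 50 CPM in 1 ovary of 25 dpf, 8 of 5071 (0.158%) were at or under 3 counts in the other ovary, and among those with at least 50 CPM in 1 testis, 27 of 5438 (0.497%) were at or under 3 counts in another testis. None of these genes was called. Several encode mitochondrial ribosomal proteins, a list in which other members were higher in ovaries. MRPS22 was at 75.9 and 0.612 CPM in the ovaries and at 76.4 to 125 CPM in the testes, and at 30 dpf the ovaries stood at 1.08, 0.785 and 108 CPM. mrps31 was at 0.396 and 52.2 CPM in the ovaries and at 0 to 0.704 CPM in the testes, while MRPL1 was at 0.593 and 92.0 CPM in the ovaries and at 9.86 to 20.4 CPM in the testes. Each of these genes was thus on in 1 ovary and near the floor in the other.

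The split was not limited to ovaries. gtsf1, which encodes a piRNA pathway protein in other vertebrates, was at 0, 69.3, 0 and 104 CPM in testes 1 to 4, and COPS7A, of the COP9 signalosome, at 0.434, 60.5, 0.378 and 111 CPM, with 128 and 69.4 CPM in the ovaries. HHATL and myha, expressed in muscle, were at 564 and 321 CPM in testis 1 and at or under 2.11 CPM in the other testes. These genes were singled out after their values were seen.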
